A study of Mus musculus with 24 samples.

Results

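The transcripts of 10 genes that serve round spermatids and the acrosome were followed in a mouse model lacking Thumpd1. These were Acrv1, Acr, Spaca1, Spaca3, Tssk1, Tssk2, Crem, Zpbp, Zpbp2 and Izumo1, chosen by gene symbol, and each matched 1 of 55450 genes in the deposited table. WT mice were compared with germline Thumpd1 KO mice, made by Cas9 with a pair of guides in C57BL/6N zygotes and backcrossed to C57/BL6. The mice were littermates of 6 to 12 weeks and no treatment was given. The labels give either sex for the series, and the testes are from males. Testes were the tissue of interest, with 4 WT libraries (replicates 1 to 4) and 4 KO libraries (replicates 5 to 8). Liver and cerebellum, with 4 libraries of each genotype, served as background tissues. Because the deletion was present in every cell of the KO animals, germ cells and the somatic cells around them shared it.

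Round spermatids are the haploid cells that follow meiosis. They build the acrosome, a cap-shaped secretory vesicle over the nucleus that later releases its contents at the egg coat. Much of their transcription depends on CREM, an activator that binds cAMP response elements (CREs) in promoters of postmeiotic genes, and the messages are then stored and translated as the cells elongate. The first wave of spermatids appears before the ages sampled here, so adult testes hold every stage from spermatogonia to elongated spermatids.

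The promoters of the 4 genes that fell in KO testes are shown so that CRE-type letters, where present, can be read directly. Each line holds the 250 bases before a RefSeq transcription start (GRCm38.p6), written 5′ to 3′ on the gene's strand, and capitals mark the CRE half-site TGACG or its reverse complement CGTCA. Spaca3 had 2 such windows, as did Spaca1 below, and the line of Spaca3 shows 1 of them.
Spaca3, chr11:80858113-80858362, plus strand: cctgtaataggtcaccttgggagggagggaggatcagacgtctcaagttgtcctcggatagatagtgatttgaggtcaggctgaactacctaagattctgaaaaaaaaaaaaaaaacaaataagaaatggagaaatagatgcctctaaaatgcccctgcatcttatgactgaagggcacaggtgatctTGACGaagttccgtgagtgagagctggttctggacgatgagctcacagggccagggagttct
Izumo1, chr7:45621561-45621810, plus strand: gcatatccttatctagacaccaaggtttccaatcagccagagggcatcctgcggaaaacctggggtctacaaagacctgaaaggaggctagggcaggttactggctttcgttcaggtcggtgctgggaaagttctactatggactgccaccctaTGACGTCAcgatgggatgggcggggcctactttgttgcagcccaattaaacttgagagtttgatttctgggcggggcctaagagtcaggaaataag
Tssk1, chr16:17893953-17894202, plus strand: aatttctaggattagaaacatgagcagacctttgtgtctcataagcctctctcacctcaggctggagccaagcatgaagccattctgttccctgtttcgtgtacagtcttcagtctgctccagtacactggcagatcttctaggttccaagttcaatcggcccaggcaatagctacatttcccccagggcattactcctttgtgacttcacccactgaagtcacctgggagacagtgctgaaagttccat
Tssk2, chr16:17898387-17898636, plus strand: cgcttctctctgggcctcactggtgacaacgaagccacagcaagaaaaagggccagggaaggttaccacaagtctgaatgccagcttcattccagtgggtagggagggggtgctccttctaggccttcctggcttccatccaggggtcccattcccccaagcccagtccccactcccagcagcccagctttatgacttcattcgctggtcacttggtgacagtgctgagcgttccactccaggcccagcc

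Izumo1 held the full CRE, TGACGTCA, in which a half-site on each strand overlaps the other, starting 96 bases before the start. Spaca3 held 1 half-site, 62 bases before its start, and the windows of Tssk1 and Tssk2 held neither form. RefSeq windows were matched for 8 of the 10 genes, and 4 of the 8 had a half-site on either strand: Spaca3 and Izumo1, which were called lower in KO testes, and Spaca1 and Zpbp2, which were not. Over all 27025 genes with a window of this length, 19.8% had a half-site and 1.77% had the full CRE. A match in these letters is a description and not a binding site.

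Tssk1 and Tssk2 lie next to each other on chromosome 16 and their coding sequences share long identical stretches. The longest, 113 bases, is shown because read pairs that lie wholly in it cannot be assigned to 1 gene. It spans positions 501 to 613 of the Tssk1 transcript and 469 to 581 of the Tssk2 transcript in GENCODE M21, inside the coding sequence of both. Of windows shorter than this stretch, taken along each transcript, 3.42% of those of Tssk1 and 9.34% of those of Tssk2 occurred in the other.
Tssk1 and Tssk2, shared coding stretch: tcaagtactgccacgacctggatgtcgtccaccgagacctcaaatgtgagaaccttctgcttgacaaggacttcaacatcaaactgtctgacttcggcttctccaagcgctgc

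The authors' software assigned such reads in fractions. The expected counts of Tssk1 and of Tssk2 were not whole in any of the 8 testes libraries, while their sum was whole in all 8. The split of the shared reads between the pair is therefore uncertain and the sum is not. The counts of Izumo1 were fractional too, and summed to whole numbers with those of Rasip1, a same-strand neighbour that covers 654 exonic bases of Izumo1, or 21.9% of its exonic length. Rasip1 measured 7.48 ± 1.28 CPM in WT and 7.78 ± 1.07 CPM in KO testes (SD, n = 4), against 55.4 and 48.0 CPM for Izumo1. Exons of Tssk1, Crem and Zpbp overlapped exons on the opposite strand (63 bases with Dgcr2, 472 bases with Gm6225 and 223 bases with Spata48). Whether strand was used in counting is not given in the sources used here.

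Total counts ran from 16353797 to 37889615 over all 24 libraries, from 29913402 to 32220670 in WT testes and from 27273231 to 36621604 in KO testes. Thumpd1 measured 24.3 to 26.3 CPM (counts per 1000000 counts in the library) in WT testes and 0.768 to 1.14 CPM in KO testes, and at most 4 counts in any KO library of the other tissues, so the genotype labels held. The protamine genes Prm1 and Prm2 and the transition protein gene Tnp2, which mark spermatids, each measured at least 1655 CPM in every testes library, while the summed level of 6 liver markers was at most 6.01 CPM and that of 6 cerebellum markers at most 10.3 CPM. KO libraries 7 and 8 stood apart from KO libraries 5 and 6 for most of the 10 genes, so results are given with and without them. The labels do not tie single libraries to single animals, so p-values measure the spread between these samples, and in bulk tissue fewer cells of a type and less RNA per cell cannot be told apart.

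In WT testes all 10 genes were abundant, and all but Crem were close to absent from liver and cerebellum, the other tissues measured. Tssk2, which encodes a kinase found in spermatids, had the highest level per length at 283 ± 11.3 CPM per kilobase of exonic sequence (SD, n = 4). Acr, the gene of the protease acrosin, followed at 102 ± 4.60 CPM per kilobase, then Zpbp2 at 89.8 ± 1.24, Spaca3 at 81.9 ± 2.08, Tssk1 at 66.5 ± 0.881, Spaca1 at 54.2 ± 1.74, Acrv1 at 42.8 ± 1.40, Zpbp at 41.8 ± 2.12, Crem at 23.1 ± 1.36 and Izumo1 at 18.5 ± 0.585. Each gene's 4 WT libraries lay above those of the next gene in this order except for Acrv1 and Zpbp, whose ranges overlapped. Lengths were merged over all annotated transcripts, 39 of them for Crem, so a gene's level depends on which isoforms are counted.

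Acrv1 and Spaca3 had 0 counts in all 16 liver and cerebellum libraries. Set against the floor of 3 counts, which was at most 0.183 CPM in those libraries, WT testes were at least 850-fold higher for Acrv1 and at least 425-fold higher for Spaca3. Tssk2 reached 2 counts at most, which makes WT testes at least 2140-fold higher against the same floor. Spaca1 and Zpbp2 reached 5 counts at most, Tssk1 9 and Izumo1 11.7. Acr and Zpbp were detected in all 8 cerebellum libraries, with 13 to 28 counts (0.795 to 1.43 CPM) for Acr and 12 to 28 counts (0.613 to 1.33 CPM) for Zpbp, and they had at most 4 counts in any liver library. Crem was the exception, at 7.93 to 15.4 CPM in liver and 8.79 to 11.6 CPM in cerebellum. Its WT testes mean of 136 CPM was 8.84 times the highest of those 16 values. Floors cover counting error only.

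**Figure D1:**
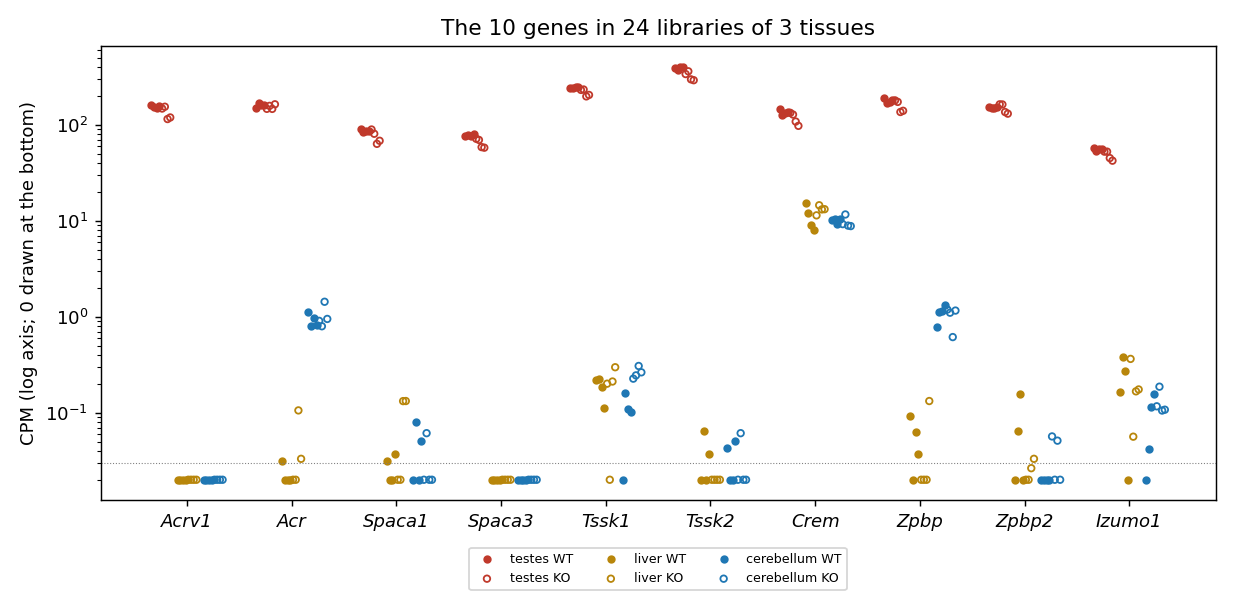
Level of each of the 10 genes in 24 libraries, in CPM on a log axis, with filled circles for WT and open circles for KO and with libraries at 0 drawn at the bottom. Testes libraries lie above 42 CPM for every gene, and only Crem exceeds 2 CPM in liver or cerebellum.

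The comparison of KO with WT testes asked whether loss of Thumpd1 altered the transcripts of the spermatid stages that build the acrosome. Of the 10 genes, 4 fell: Spaca3, Tssk2, Izumo1 and Tssk1 (limma-voom with Benjamini-Hochberg adjustment over 19329 genes, adjusted p under 0.05). The other 6 were not called by this fit, while edgeR called 6 of the 10 lower (11.1% of all genes) and DESeq2 called 7 (13.1%). Leaving out single libraries gave 0 without WT 4, where 5.04% of all genes were called lower, to 8 without KO 5, where 13% were. None rose by limma-voom, edgeR or DESeq2. An unadjusted p under 0.05 was reached by 7 of the 10, all with the lower level in KO, against 18.8% of all genes tested. At the adjusted threshold, 10.7% of all genes tested were called lower and 9.74% were called higher. The fitted change was below 0 for all 10 genes, with a median log2 change of -0.23 (-0.11 with sample quality weights), against a median of 9.7e-05 and 49.98% below 0 over all genes tested. For Zpbp2 the sign turned with sample quality weights or without KO library 7 or 8. The changes were small, from -0.33 for Spaca3 to -0.04 for Zpbp2 on the log2 scale. The same 4 genes had all KO libraries below all WT libraries in CPM, a pattern seen in 9.8% of all genes. With scaling to total counts in place of quantile normalisation, the calls over all genes went from 2075 lower and 1882 higher to 1534 lower and 3201 higher, and 3 of the 4 genes kept the call, Izumo1 being the exception.

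**Figure D2:**
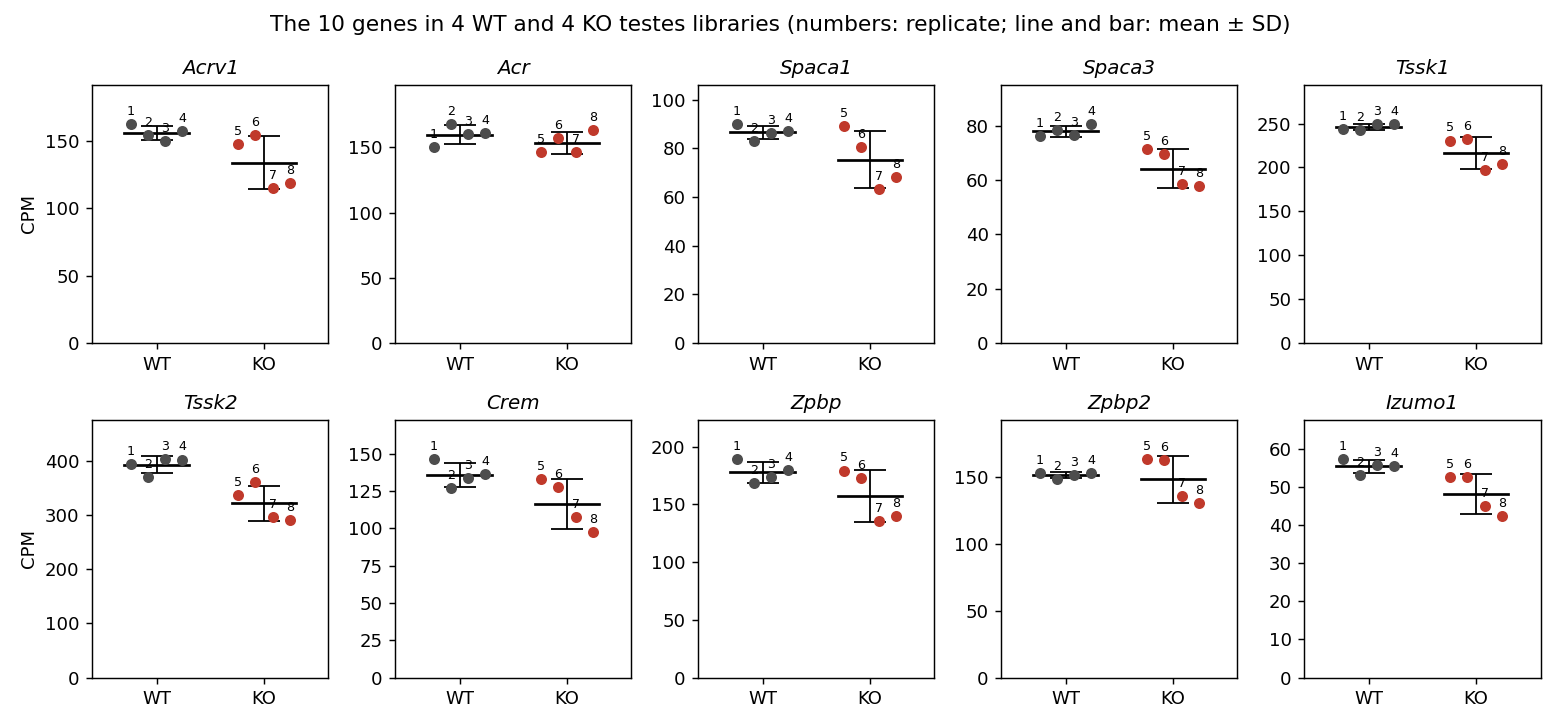
CPM of each gene in the 4 WT and 4 KO testes libraries, with replicate numbers above the points, a line at the group mean and bars of 1 SD. KO libraries 7 and 8 are the lowest pair for every gene except Acr, while KO libraries 5 and 6 often lie near or inside the WT range.

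Among the proteins of the acrosome itself, Spaca3 was called lower. It encodes a lysozyme-like protein of the acrosome (ENSMUSG00000053184.15, mm10 chr11:80858365-80867814, plus strand). The WT libraries measured 76.3, 78.3, 76.5 and 80.6 CPM, and the KO libraries 71.4, 69.5, 58.5 and 57.7 CPM. All 4 KO values lay below all WT values, the nearest pair being KO 5 and WT 1. The log2 change was -0.33 ± 0.0789 (SE), a fold of 0.796, with an adjusted p of 0.0159 in limma-voom. The call was lost in 1 of the 8 fits that left out a single library, the fit without WT 4, where limma-voom gave an adjusted p of 0.0570.

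Spaca1 encodes a protein of the inner acrosomal membrane that shapes the organelle (ENSMUSG00000028264.16, chr4:34024874-34050191, minus strand). Its values were 89.8, 83.1, 86.1 and 86.9 CPM in WT and 89.2, 80.6, 63.2 and 68.1 CPM in KO testes. KO 5 lay inside the WT range and the other KO libraries below it. The log2 change of -0.25 ± 0.0968 (SE) was not called, with an adjusted p of 0.0875 in limma-voom. It was called in 2 of 18 other settings, DESeq2 (adjusted p 0.0447) and the fit without KO 5 (0.0137). The change was -0.11 with sample quality weights (limma-voom adjusted p 0.155) and -0.05 without KO 7 and KO 8 (0.490).

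Acrv1 encodes SP-10, a protein of the acrosomal matrix (ENSMUSG00000032110.4, chr9:36693220-36698843, plus strand). WT libraries measured 162, 154, 150 and 157 CPM, and KO libraries 148, 154, 115 and 119 CPM. KO 6 lay inside the WT range and KO 5 just below it. Acrv1 changed by -0.23 ± 0.0868 (SE) on the log2 scale with an adjusted p of 0.0794 in limma-voom, so it was not called. It was called in 7 of 18 other settings, among them edgeR (adjusted p 0.0454), DESeq2 (0.0213), TMM factors (0.0375) and quantile normalisation over 24 libraries (0.00779). The fit over 24 libraries takes its spread from liver and cerebellum too, where Acrv1 had 0 counts. The change was -0.07 with sample quality weights (limma-voom adjusted p 0.313) and -0.05 without KO 7 and KO 8 (0.390).

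Acr, which encodes the acrosomal protease acrosin (ENSMUSG00000022622.5, chr15:89568326-89574585, plus strand), was not called. WT libraries measured 150, 168, 160 and 161 CPM and KO libraries 146, 157, 146 and 163 CPM. The groups overlapped, and KO 8, among the lowest libraries for the other genes, held the second highest value. The log2 change was -0.04 with a 95% confidence interval from -0.16 to 0.08 and an adjusted p of 0.629 in limma-voom. Without KO 7 and KO 8 it was -0.07, with a limma-voom adjusted p of 0.326.

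Of the genes for binding and fusion with the egg, Izumo1 fell. It encodes the sperm surface protein that binds the egg receptor Juno (ENSMUSG00000064158.6, chr7:45621811-45628823, plus strand), and its promoter is the one shown above with the full CRE. WT libraries measured 57.2, 53.0, 55.8 and 55.4 CPM and KO libraries 52.5, 52.5, 44.95 and 42.2 CPM. The groups did not overlap, but KO 5 and KO 6 were within 1 CPM of the lowest WT library. The log2 change was -0.27 ± 0.0824 (SE), with an adjusted p of 0.0381 in limma-voom. The call held in 2 of the 8 fits that left out a library, those without KO 5 or KO 6, and the limma-voom adjusted p in the other 6 ran from 0.0624 to 0.0982. It was also lost with total-count scaling, without the filter on low values, with quantile normalisation over 24 libraries and without KO 7 and KO 8, with limma-voom adjusted p of 0.0632, 0.0672, 0.319 and 0.107. The fit over 24 libraries takes its spread from liver and cerebellum too, where Izumo1 lay near the floor. Without KO 7 and KO 8 the log2 change was -0.12. With sample weights the call was kept at -0.15.

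Zpbp and Zpbp2 encode a pair of related acrosomal proteins that bind the egg coat. Zpbp (ENSMUSG00000020193.3, chr11:11279626-11462408, minus strand) measured 189, 168, 174 and 180 CPM in WT and 179, 173, 136 and 140 CPM in KO testes. Its KO 5 and KO 6 values sat inside the WT range. The log2 change of -0.18 ± 0.0873 (SE) was not called, with an adjusted p of 0.166 in limma-voom. It was called in 1 of 18 other settings, the fit without KO 5 (adjusted p 0.0384). The change was -0.04 with sample quality weights (limma-voom adjusted p 0.565) and -0.0013 without KO 7 and KO 8 (0.988). Spata48, on the opposite strand of Zpbp, measured 42.7 ± 1.94 CPM in WT and 31.8 ± 5.59 CPM in KO testes (SD, n = 4).

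Zpbp2 (ENSMUSG00000017195.15, chr11:98551097-98558665, plus strand) measured 152, 148, 151 and 153 CPM in WT testes and 163, 163, 136 and 130 CPM in KO testes. Both KO 5 and KO 6 exceeded every WT library, and both KO 7 and KO 8 lay below every WT library. The log2 change was -0.04 with a 95% confidence interval from -0.19 to 0.12 and an adjusted p of 0.742 in limma-voom.

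The testis-specific serine kinases of this set both fell. Tssk2 (ENSMUSG00000045521.7, chr16:17898637-17900024, plus strand) measured 394, 370, 404 and 403 CPM in WT and 337, 361, 297 and 291 CPM in KO testes. All KO libraries lay below all WT libraries. Tssk2 fell by 0.24 ± 0.0627 (SE) on the log2 scale with an adjusted p of 0.0212 in limma-voom. With TMM, total-count or upper-quartile scaling, edgeR or DESeq2 the change of Tssk2 was larger, from -0.29 to -0.37, and slightly larger than that of Spaca3. The call was lost without WT 3, WT 4 or KO 7, where the limma-voom adjusted p was 0.0713, 0.0682 and 0.0567.

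Tssk1 (ENSMUSG00000041566.3, chr16:17894223-17897922, plus strand) measured 244, 243, 249 and 249 CPM in WT testes and 231, 233, 197 and 204 CPM in KO testes. The groups did not overlap, and the WT libraries differed among themselves by less than 7 CPM. The log2 change of -0.17 ± 0.0533 (SE) had an adjusted p of 0.0471 in limma-voom, close to the threshold, and the call held in 2 of the 8 fits that left out a library, those without KO 5 or KO 6, with limma-voom adjusted p from 0.0790 to 0.125 in the other 6. The call was also lost without the filter on low values, with quantile normalisation over 24 libraries and without KO 7 and KO 8, with limma-voom adjusted p of 0.0746, 0.324 and 0.108. The fit over 24 libraries takes its spread from liver and cerebellum too, where Tssk1 lay near the floor. Without KO 7 and KO 8 the log2 change was -0.08. With upper-quartile factors the change of Tssk1 was larger, at -0.27, and with sample weights smaller, at -0.10.

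When the pair was summed, which removes the uncertain split of shared reads, the level was 639 ± 18.6 CPM in WT and 538 ± 50.5 CPM in KO testes (SD, n = 4). The summed log2 change was -0.19 ± 0.0554 (SE), with an adjusted p of 0.0346 in limma-voom. Tssk2 held 60.4% to 61.9% of the summed counts in WT libraries and 58.8% to 60.8% in KO libraries.

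Crem encodes the transcriptional activator itself, along with repressor isoforms that gene-level counts do not separate (ENSMUSG00000063889.16). WT libraries measured 146, 127, 134 and 136 CPM and KO libraries 133, 128, 108 and 97.4 CPM. KO 5 and KO 6 lay inside the WT range, and KO 7 and KO 8 below it. Crem changed by -0.24 ± 0.0908 (SE) on the log2 scale with an adjusted p of 0.0819 in limma-voom, so it was not called. It was called in 6 of 18 other settings, among them edgeR (adjusted p 0.0449), DESeq2 (0.0205) and TMM factors (0.0383). The change was -0.11 with sample quality weights (limma-voom adjusted p 0.160) and -0.06 without KO 7 and KO 8 (0.422). In the fit over all 24 libraries with TMM factors, which serves below to compare tissues, the change in testes was -0.37 ± 0.0928 (SE). Its limma-voom adjusted p over 11112 genes depended on the settings of that fit, at 0.00415 as fitted, 0.0374 with quantile normalisation and 0.0972 with a term for the replicate number, where it was not called.

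**Figure D3:**
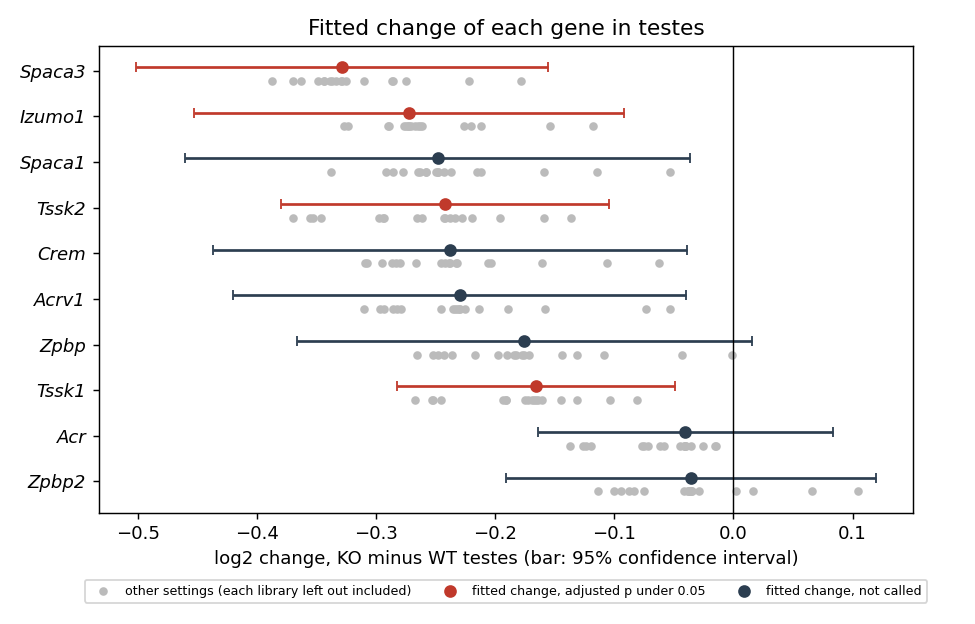
Fitted log2 change of each gene, KO minus WT testes, with 95% confidence intervals, red where the adjusted p was under 0.05, and grey points for the fits under other settings. All 10 estimates lie between -0.33 and -0.04, and the grey points cross 0 for Zpbp2 alone.

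KO libraries 7 and 8 carried most of the difference. They were the lowest pair of the 8 libraries for 9 of the 10 genes, Acr being the exception. Across the 10 genes the median level relative to the WT mean was 94.7% in KO 5, 94.7% in KO 6, 77.9% in KO 7 and 77.5% in KO 8. Summed over the 10 genes, WT libraries held 1593 to 1663 CPM, and KO libraries 5 to 8 held 1551, 1571, 1302 and 1313 CPM. The KO mean of these sums was 87.5% of the WT mean, and 95.2% when KO 7 and KO 8 were left out. A fit without these libraries, with 4 WT against 2 KO samples, called 2 of the 10 genes lower, Spaca3 (log2 change -0.18, limma-voom adjusted p 0.0203) and Tssk2 (-0.14, limma-voom adjusted p 0.0407), against 9.66% of all genes. The median log2 change of the 10 genes was then -0.07 and 9 of 10 were below 0, with Zpbp2 at 0.10.

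Markers of other testis cell types also differed between KO and WT, not all in the same libraries as the 10 genes. Of all genes tested, 10.7% were called lower and 9.74% higher, the shares against which the counts of each list below stand. Of 18 Sertoli cell markers, 13 rose and none fell, and their median level relative to the WT mean (0.5 CPM added to both) was 123%, 127%, 169% and 138% in KO libraries 5 to 8. The summed level of the Sertoli markers was 1469 to 1697 CPM in WT and 1909 to 2702 CPM in KO testes, which did not overlap. A sum weighs the most abundant genes of a list, and 1 Sertoli marker averaged 807 CPM in WT and 1068 CPM in KO testes. Ctsl, a lysosomal protease of these cells, rose from 197 to 286 CPM (log2 change 0.57), and Fshr, the receptor for follicle-stimulating hormone, rose from 2.28 to 4.32 CPM (0.83). The summed spermatogonia markers were 277 to 309 CPM in WT and 323 to 412 CPM in KO testes, with 3 of 13 tested called higher and none lower, among them Zbtb16 (0.72) and Dazl (0.31), both regulators of early germ cells.

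The spermatocyte markers, from the meiotic cells that precede the round spermatid, had a median log2 change of 0.07, and 2 of 20 fell, a share near that of all genes, the cyclin gene Ccna1 (-0.21) and the synaptonemal complex gene Syce3 (-0.43). Their summed level was 1940 to 2119 CPM in WT and 1891 to 2231 CPM in KO testes. The elongating spermatid markers are named for the stage that follows, though messages made in round spermatids and stored can count among them. These markers had a median log2 change of -0.17. Of these 18, 9 fell and none rose, among them Oaz3 (-0.35), an antizyme of late spermatids, and Fscn3 (-0.37), an actin-bundling protein. Their summed level was 21671 to 22522 CPM in WT and 16477 to 20242 CPM in KO testes.

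Leydig cell markers had 2 of 10 lower and 2 higher, led by the steroid dehydrogenases Hsd3b6 (-0.99) and Hsd3b1 (0.94), whose sequences are closely related. Their summed level was 1190 to 1287 CPM in WT testes. It was 1733 CPM in KO 7 and 1078 to 1116 CPM in the other 3 KO libraries, which lay below every WT library. None of the 8 peritubular myoid and vascular markers was called by limma-voom. An unadjusted limma-voom p under 0.05 was reached by 3, all higher in KO, and 18.8% of all genes reached it on the lower side. Kdr and Myh11, each with a log2 change of 0.30, had the smallest p, and the summed level was 123 to 146 CPM in WT and 140 to 190 CPM in KO. Of the macrophage and blood markers 1 of 6 tested rose, Mrc1 (0.35). Of the markers of the background tissues, Cyp2e1 of liver fell (-1.82, from 4.00 to 1.84 CPM), and the 2 cerebellum markers tested, Cbln1 and Mbp, were both at -0.02. The part of these shifts in the changes of the 10 genes was not tested. Without KO 7 and KO 8, where 9.66% of all genes were called lower and 9.54% higher, 12 of 18 Sertoli markers were called higher and 8 of 18 elongating spermatid markers lower. The spermatocyte list changed from 2 lower to 4 higher and the Leydig list from 2 lower to 5 lower, with 2 higher in both. The spermatogonia list then had 2 higher and 1 lower, with a median log2 change of 0.023 against 0.25 in all 8 libraries. The macrophage and blood list lost the call of Mrc1, with a median of -0.0019 against 0.17.

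**Figure D4:**
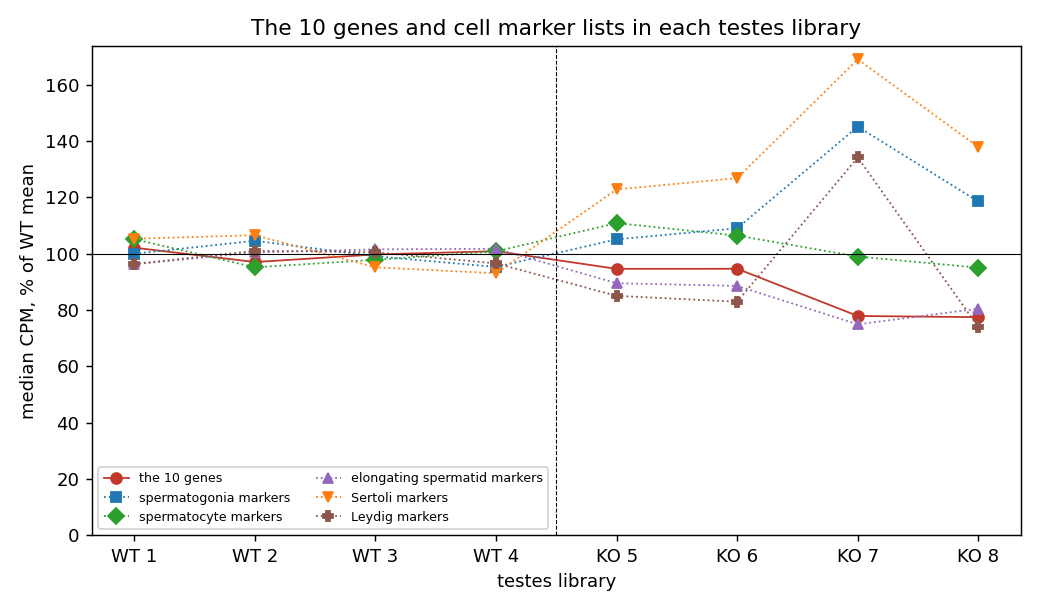
Median level relative to the WT mean, in percent, of the 10 genes (solid line) and of 5 lists of cell type markers (dotted lines) in each testes library. The 10 genes sit at 94.7% in KO 5 and KO 6 and near 78% in KO 7 and KO 8, and the Sertoli markers lie above 120% in all 4 KO libraries.

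Further genes of these pathways were followed in lists. As above, the counts stand against 10.7% lower and 9.74% higher among all genes. Of 16 genes for acrosome contents and membrane, 8 fell and none rose, with a median log2 change of -0.29. Spaca4, a surface protein of the acrosomal membrane, had the smallest p. It measured 72.1 ± 2.88 CPM in WT libraries and 53.1 ± 5.68 CPM in KO libraries (SD, n = 4), and fell by 0.51 on the log2 scale. Lyzl4, a lysozyme-like relative of Spaca3, changed by -0.40, Zp3r, an acrosomal matrix protein that binds the egg coat, by -0.38, and Spaca9 by -0.29. Acrbp, which binds proacrosin, and Spink2, an inhibitor of acrosin, were not called, at -0.12 and -0.14.

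Genes for the building of the acrosome were mixed. Of 13 in this list, 4 fell, 1 rose and 8 were not called, with a median log2 change of -0.03. Actl7a and Actl9, actin-like proteins that anchor the acrosome to the nucleus, changed by -0.26 and -0.29, and Fam209 by -0.32. Vps54, a tethering factor for vesicles returning to the Golgi, was the gene that rose. Its WT libraries averaged 29.9 ± 1.04 CPM and its KO libraries 38.95 ± 2.05 CPM (SD, n = 4), and the fitted change was 0.30 on the log2 scale. Agfg1 and Spata16, both needed for the fusion of proacrosomal vesicles, were not called, at -0.04 and 0.05.

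Of 19 further genes for sperm-egg binding and fusion in the table, 7 fell and none rose, with a median log2 change of -0.18. The gene with the smallest p was 4930451I11Rik, which encodes a fertilization membrane protein, with 19.0 ± 0.790 CPM in WT libraries, 12.7 ± 1.45 CPM in KO libraries (SD, n = 4) and a fitted log2 change of -0.70. Prss37, needed for maturation of ADAM3, changed by -0.33, Izumo2, a relative of Izumo1, by -0.41 and Adam1a by -0.23. Clgn, a chaperone of sperm surface proteins, and Adam2, the fertilin beta gene, were not called, at 0.08 and -0.03.

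In the kinase family and its partners, 4 of 6 fell and none rose, with a median log2 change of -0.29. Tssk6, a kinase needed for sperm chromatin condensation, averaged 336 ± 18.1 CPM in WT libraries and 243 ± 15.8 CPM in KO libraries (SD, n = 4), and fell by 0.43 on the log2 scale. Tsks, a substrate bound by Tssk1 and Tssk2, changed by -0.26, Tssk4 by -0.31 and Tsacc, a co-chaperone of these kinases, by -0.37. Tssk3 and Tssk5 were not called, at -0.23 and -0.27.

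Regulators of transcription in round spermatids were mixed around a median log2 change of -0.05, with 3 of 14 lower and 1 higher. Fhl5, the coactivator of CREM also known as ACT, fell by 0.39 on the log2 scale. Kif17, a kinesin that sets the cellular location of this coactivator, changed by -0.17 and Creb3l4 by -0.26. Taf7l, a testis form of a general transcription factor subunit, rose by 0.21, while Papolb, a testis poly(A) polymerase, and Chd5, a chromatin remodeller, were not called, at -0.03 and -0.01. Of 7 tested genes known to be lost in Crem mutant testes, 4 fell and none rose, with a median of -0.21, a list that shares genes with the elongating spermatid markers. These were the protamines Prm1 (-0.27) and Prm2 (-0.28), the transition protein gene Tnp2 (-0.15) and Odf1 (-0.24), which encodes a tail fibre protein. Tnp1 and Smcp were not called, at -0.13 and -0.10.

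Without KO 7 and KO 8, the numbers called lower were 6 of 16 for acrosome contents and membrane, 3 of 13 for acrosome building, 7 of 19 for binding and fusion, 3 of 6 for the kinases and partners, 4 of 14 for the regulators and 2 of 7 for the genes lost in Crem mutants, against 9.66% of all genes. The numbers called higher were 2 for acrosome building, 1 for binding and fusion, 2 for the regulators and 0 for the other three lists, against 9.54% of all genes. The medians then lay between -0.15 and -0.02.

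In liver and cerebellum none of the genes that could be tested was called by limma-voom, edgeR or DESeq2, and none had an unadjusted limma-voom p under 0.05. DESeq2 gave no adjusted p for Zpbp in cerebellum. The filter of 1 CPM in 4 libraries left 1 of the 10 genes to test in liver and 2 in cerebellum, where 5.91% and 6.44% of all genes were called. Crem measured 15.4, 12.1, 9.02 and 7.93 CPM in WT and 11.4, 14.5, 13.1 and 13.2 CPM in KO liver, which overlapped. Its log2 change was 0.26 ± 0.151 (SE) in liver, with an adjusted p of 0.332 in limma-voom, and -0.11 ± 0.0916 in cerebellum, with an adjusted p of 0.521 in limma-voom. Zpbp in cerebellum changed by -0.21 ± 0.265 (SE), with an adjusted p of 0.666 in limma-voom.

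Crem was the gene for which the KO effect could be compared between tissues. In 1 fit over all 24 libraries, the effect in testes minus that in liver was -0.63 ± 0.181 (SE) on the log2 scale, with an adjusted p of 0.0201 in limma-voom, among 11112 genes of which 15.9% were called. Testes minus cerebellum was -0.28 ± 0.213 (SE), with an adjusted p of 0.401 in limma-voom, where 14.5% of all genes were called. Without KO libraries 7 and 8 of testes, the difference from liver was -0.40 and was no longer called, with an adjusted p of 0.0917 in limma-voom.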

How the data were processed

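Total RNA of testes, liver and cerebellum was sequenced by the authors after ribosomal RNA depletion, with a stranded kit and paired reads. Per the labels and the study's methods, reads were aligned with STAR and quantified with RSEM on mm10 with GENCODE M21, and tool versions and the strand setting are not given in the sources used here. The deposited values are expected counts per gene, neither normalised nor whole for 12.3% to 16.6% of values above 0 in a library, since RSEM divides reads shared between genes. All 24 columns were matched to labelled samples.

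Expected counts were fitted per tissue with limma-voom (limma 3.58.1, R 4.3.3) after quantile normalisation, on genes with at least 1 CPM in at least 4 of 8 libraries, with Benjamini-Hochberg adjustment at 0.05. CPM values in the text are counts divided by the library total and multiplied by 1000000, while fitted changes are on the quantile-normalised log2 scale, so a fold need not equal the ratio of CPM means. KO effects were compared between tissues by an interaction term over 24 libraries with TMM factors. edgeR 4.0.16 and DESeq2 1.42.0 used counts rounded to whole numbers. Data were simulated on the testes libraries, with 200 of 19307 genes changed. The fit recovered 99.5% of these genes, and 5.69% of its calls were false. Recovery of changes as small as those of the genes followed here, -0.33 to -0.04 on the log2 scale, was not tested. In the real testes libraries 10.7% of genes were called lower and 9.74% higher, more than the share changed in the simulation. The simulated rates therefore need not hold for the calls reported here. Promoter letters and exon overlaps were read with Python 3.11.15. Alternatives were other scalings, filters, tools and sample weights, each library left out, and, chosen after seeing the data, Tssk1 and Tssk2 summed, upper-quartile factors, centring on spermatocyte markers and KO libraries 7 and 8 left out.

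The 10 genes and the gene lists were chosen with earlier results of these data known. All 10 are named. Of each pathway list, up to 4 called genes with the smallest p and up to 2 uncalled genes with the highest level are named, and of each marker list up to 2 genes with the smallest p.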

Additional observations from a re-analysis of the deposited data

Results flagged for a closer look

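Crem in KO cerebellum had 1 library, KO 6, at 11.6 CPM, apart from the other three at 8.79 to 9.22 CPM. Zpbp in KO cerebellum had 1 library, KO 7, at 0.613 CPM, apart from the other three at 1.10 to 1.19 CPM. Both were found among 27 groups of 4 libraries tested for a lone extreme value, a test that chance passes in about 1 of 20 groups, and Zpbp rested on 12 counts there. The KO effect on Crem differed between tissues by -0.63 on the log2 scale, testes minus liver, by an interaction term.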

How the results depend on the processing

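The count of 4 genes called lower in KO testes, against 10.7% of all genes, was 7 with DESeq2 (13.1% of all genes) and 2 without the filter on low values (3.87%). TMM factors (11.7%), edgeR (11.1%) and upper-quartile factors (12.2%) each called 6, adding Acrv1 and Crem, and scaling to total counts called 3 (7.94%). Leaving out each library in turn gave 0 (without WT 4, 5.04%) to 8 (without KO 5, 13%) genes lower, with 5 without KO 6 (11.4%), 2 without WT 1 (8.39%), WT 2 (7.10%) or KO 8 (9.14%), and 1 without WT 3 (4.95%) or KO 7 (6.93%). With KO libraries 7 and 8 left out together the count was 2. The median log2 change of the 10 genes was -0.11 with sample quality weights and -0.068 without KO 7 and KO 8, and reached -0.28 with TMM factors, -0.29 with upper-quartile factors and -0.30 relative to the spermatocyte markers. The summed CPM without these libraries was 95.2% of WT. The sign of Zpbp2 turned to 0.066 with sample weights and 0.10 without KO 7 and KO 8 together, and with each library left out in turn its log2 change ran from -0.084 (without KO 5) to 0.016 (without KO 8), with 0.00198 without KO 7. The cause was not tested. The call was kept in 17 of 18 settings by Spaca3, 15 by Tssk2, 9 by Tssk1 and 8 by Izumo1. Among these settings, quantile normalisation over 24 libraries takes its spread from all tissues. Its p therefore depends in part on values near the floor in liver and cerebellum. The deviations of same-numbered libraries of different tissues did not meet the criterion for pairing, a correlation above 0.1 in every pair. It was above 0.1 in 6 of 24 pairs (-0.19 to 0.23, median 0.05), and between KO liver and KO testes it was 0.088 to 0.12 in all 4 pairs. A library matched its own number best, among 4 candidates, in 18 of 48 comparisons, so some sharing is possible. A replicate block in the fit over 24 libraries gave -0.64 (limma-voom adjusted p 0.00494) for Crem in testes minus liver and -0.29 (0.235) for testes minus cerebellum, and moved the calls from 1763 to 2345 and from 1616 to 1792. For Crem in testes in the same fit it gave -0.37 with an adjusted p of 0.0972 in limma-voom, against 0.00415 without it, so that call was lost. Within 1 tissue no block can be fitted, since WT and KO share no replicate number. The liver difference was -0.40 (adjusted p 0.0917) without KO 7 and KO 8 of testes. Depth limits the values for liver and cerebellum, where 8 or 9 of the 10 genes were too low to test.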
